A study of Mus musculus with 6 samples.

Results

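The genes described here encode 10 proteins of the conjugation phase of drug metabolism in mouse liver: the UDP-glucuronosyltransferases Ugt1a1, Ugt1a6a, Ugt1a6b, Ugt1a9, Ugt2b1, Ugt2b5 and Ugt2b36, the sulfotransferase Sult1a1, the sulfate donor synthase Papss2 and the UDP-glucose dehydrogenase Ugdh. They were chosen by name, and each name matched 1 row of the 55385 genes in the deposited table. Poly(A) RNA from 6 livers of 6-week-old C57BL/6 mice was sequenced in 3 groups of 2 animals. Wild-type mice received 200 µL of phosphate-buffered saline (the saline group, replicates 3 and 6) or 500 mg/kg acetaminophen (replicates 1 and 4), and Optn-/- mice received 500 mg/kg acetaminophen (replicates 4 and 5). Every injection was intraperitoneal and every liver was taken 6 h later. Optn encodes optineurin, a receptor for selective autophagy. No saline-treated Optn-/- group was analysed here, and the labels do not say in which cells the deletion was made or give the sex of the animals. The mapping of replicate numbers to shared litters or days is also not given.

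Acetaminophen is cleared by the liver mainly as glucuronide and sulfate conjugates, and the remainder is oxidised by P450 enzymes to a reactive quinone imine. UDP-glucuronosyltransferases sit in the endoplasmic reticulum and move glucuronic acid from UDP-glucuronate, which Ugdh makes from UDP-glucose, onto the drug. Cytosolic sulfotransferases such as Sult1a1 use the sulfate donor PAPS, which Papss2 and Papss1 make from inorganic sulfate and ATP. Members of the UGT1A6 and UGT1A9 type glucuronidate acetaminophen, Ugt1a1 conjugates bilirubin, and the Ugt2b enzymes act on steroids, bile acids and many drugs.

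The Ugt1a genes are alternative first exons of 1 locus on chromosome 1 (GRCm38, plus strand), spliced to the same exons 2 to 5. The stretch around that splice is shown for the 4 Ugt1a genes because it holds both what separates them and what they share. Lower case gives the last 60 bases of each first exon and capitals the first 60 bases of shared exon 2, which starts at position 88215044; sequences are from the GENCODE M21 transcripts.
Ugt1a1: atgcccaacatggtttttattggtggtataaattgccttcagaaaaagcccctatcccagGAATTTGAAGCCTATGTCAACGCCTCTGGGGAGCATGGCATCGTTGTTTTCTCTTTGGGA
Ugt1a6a: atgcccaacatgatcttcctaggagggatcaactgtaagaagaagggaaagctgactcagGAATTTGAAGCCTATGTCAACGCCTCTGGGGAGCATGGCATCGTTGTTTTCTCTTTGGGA
Ugt1a6b: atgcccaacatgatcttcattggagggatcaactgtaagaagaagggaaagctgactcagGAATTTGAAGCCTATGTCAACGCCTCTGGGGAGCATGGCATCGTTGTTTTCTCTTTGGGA
Ugt1a9: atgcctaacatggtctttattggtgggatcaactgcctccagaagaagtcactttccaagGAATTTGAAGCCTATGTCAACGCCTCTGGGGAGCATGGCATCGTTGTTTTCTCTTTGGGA
The first exons end at 88071678 for Ugt1a9, 88107799 for Ugt1a6b, 88139331 for Ugt1a6a and 88212871 for Ugt1a1. Exons 2 to 5 add 1311 bases to each transcript, against 849 to 870 coding bases in the first exons. Coding sequences of the first exons were 97.0% identical between Ugt1a6a and Ugt1a6b and 64.4% to 68.3% identical in the other 5 pairs. Of all 100-base windows of its main transcript, 97.7% of those of Ugt1a6a also occurred in a transcript of another gene, against 69.2% for Ugt1a6b, 58.5% for Ugt1a9 and 57.2% for Ugt1a1. How the authors' counting divided reads between these entries is not given in the sources used here, so the count of a single Ugt1a gene is uncertain and the sum over the locus is given beside it.

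The Ugt2b members are separate genes in a cluster on chromosome 5, each on the minus strand, with Ugt2b1 at 86916638 to 86926530, Ugt2b36 at 87065927 to 87092555 and Ugt2b5 at 87124960 to 87140318. Ugt2b5 was 97.0% identical in coding sequence to Ugt2b38 and 94.7% to Ugt2b37, and 24.7% of its 100-base windows occurred in 1 of these. No such window of Ugt2b1, Ugt2b36 or Papss2 occurred elsewhere. Sult1a1 (chromosome 7, 126672865 to 126676432, minus strand) shared 2.35% of its windows with Gm6939, and Ugdh (chromosome 5, 65413221 to 65435949, minus strand) shared 2.45% with Gm43552. Papss2 lies on chromosome 19 at 32595790 to 32667185, on the plus strand.

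The libraries held 59143418 to 77292216 counts. Hepatocyte markers summed to 111110 to 150740 CPM (counts scaled to a library total of 1000000) over 9 genes. Optn was at 21.0 and 18.7 FPKM (a level scaled by gene length and library size) after saline, 9.17 and 9.19 in treated wild type and 0.316 and 0.457 in treated Optn-/- livers. Traces of other tissues cut across the groups. Skeletal muscle markers summed to 68.9 to 105.2 CPM in saline replicate 3 and both treated wild-type libraries and to 0.580 to 1.01 CPM in the other 3; of the 12 markers, 6 to 9 were at 0 in the latter and 0 in the former. The intestinal goblet cell genes Muc2, Clca1 and Zg16 showed the reverse: Muc2 was at 3.47 to 6.83 CPM in saline replicate 6 and both Optn-/- libraries and at 0.0563 to 0.0676 CPM in the others, where Clca1 and Zg16 were at 0. All 12 intestinal markers summed to 74.8 to 81.1 CPM in the former and 38.3 to 61.0 CPM in the latter, with Sis at 0 throughout. Fabp2, a large part of that sum, did not follow this division: it was highest in saline replicate 3 (50.3 CPM), at 26.0 and 24.9 in treated wild type and at 24.0 and 27.5 in treated Optn-/- livers. Neuronal markers summed to 111.3 CPM in treated wild-type replicate 4 against 5.91 to 13.4 CPM elsewhere. Neutrophil markers summed to 2.5 and 6.34 CPM after saline and to 70.2 to 192.3 CPM in the 4 treated livers. Cholangiocyte markers summed to 5.06 and 11.6 CPM after saline, 26.3 and 16.4 in treated wild type and 51.6 and 56.0 in treated Optn-/- livers; most of the treated sums was Sox9, and Cftr was at 0 in 4 of the 6 libraries. Kupffer cell markers summed to 91.9 CPM in saline replicate 3 and 200.0 to 385 CPM in the other 5. The part of these cell types in the results was not tested. Treated Optn-/- and treated wild-type libraries lie wholly on opposite sides of the muscle and intestine division, so these 4 libraries alone cannot tell genotype from library set. The saline livers fall 1 in each set, so a fit with the set as a term could be made. In that fit the set is estimated from within the saline group alone. Values of that fit are given where it ends a call and for some of the values it moves. A value given without it may have moved too. In these bulk samples, fewer hepatocytes and less RNA of a gene per hepatocyte cannot be told apart either.

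All 10 conjugation genes were well expressed, and 0 of them passed edgeR's test in any comparison. Ugt2b5 had the highest FPKM of the 10 in each library (205 to 407), and the lowest was Ugdh in 3 libraries and Ugt1a6a in the other 3. Together the 10 genes took 0.20% to 0.341% of all counts, with both saline libraries above the 4 treated ones. Acetaminophen-treated wild-type livers were compared with saline livers by edgeR's quasi-likelihood test over 11677 genes. It called 0 of the 10, where 14.3% of all genes were called at an adjusted p under 0.05. Between treated Optn-/- and treated wild-type livers it also called 0 of 10, with 0.103% of all genes called. Between treated Optn-/- and saline wild-type livers, where genotype and drug change together, it called 0 of 10 with 20.3% of all genes called. At an unadjusted p under 0.05 the members counted 2, 2 and 4 of 10 in these comparisons, with 32.3%, 8.77% and 35.9% of all genes. DESeq2 called 2 of 10 (Ugt1a1 and Ugt2b5, both lower) where it called 26.6% of all genes, 1 of 10 (Ugt1a9, higher) where it called 2.42%, and 1 of 10 (Ugt1a6a, lower) where it called 31.0%. With limma on log2(FPKM + 0.5) 1, 0 and 1 of the 10 passed, where 18.8%, 0.231% and 25.6% of all genes did. Each pair of these comparisons shares a group.

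**Figure D1:**
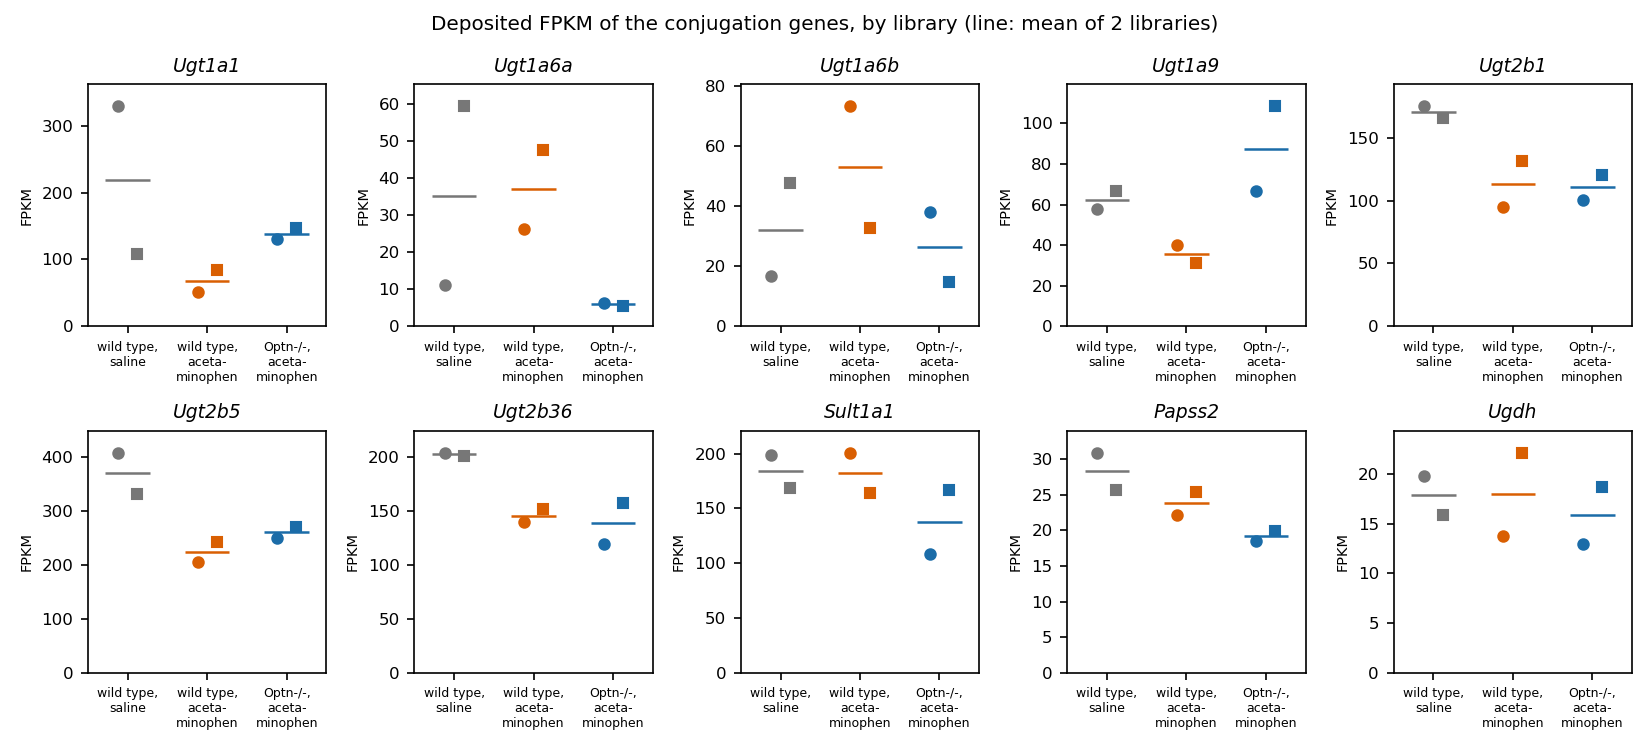
Deposited FPKM (vertical axes, from 0) of each of the 10 conjugation genes in the 6 libraries by group; points are single libraries (circle, the lower replicate number; square, the higher) and lines the mean of 2. Ugt2b1, Ugt2b5 and Ugt2b36 sit lower in all 4 treated libraries than in both saline libraries, while the saline points of Ugt1a1 and Ugt1a6a lie far apart.

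Within the UGT1 locus the single entries had differences of opposite sign and scattered widely between replicates. Ugt1a1, the bilirubin conjugating enzyme, was at 329 and 109 FPKM after saline, at 51.7 and 83.6 in treated wild type and at 131 and 147 in treated Optn-/- livers. Both treated wild-type livers were below both saline livers, as for 45.1% of all tested genes, but the saline replicates themselves differed 3.02-fold. Its log2 fold change after acetaminophen in wild type was -1.50 ± 0.52 (SE, n = 2 per group; edgeR adjusted p = 0.111). Leaving out saline replicate 6 moved that to -2.12 with an edgeR adjusted p of 0.0261, and DESeq2 gave -1.51 with an adjusted p of 0.0106. Against treated wild type, the treated Optn-/- livers were 1.01 ± 0.51 higher in log2 (edgeR adjusted p = 0.639). These groups did not overlap, with Optn-/- higher, as for 23.1% of all tested genes. Against saline livers the treated Optn-/- livers were at -0.49 ± 0.51 (edgeR adjusted p = 0.538), a sign that turned to 0.53 without saline replicate 3. With the library set as a term the 3 differences of Ugt1a1 were -2.09, 2.64 and 0.54 (edgeR adjusted p = 0.0238, 0.313 and 0.327).

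Ugt1a9, a phenol conjugating form, was at 57.9 and 66.8 FPKM after saline, at 40.0 and 31.0 in treated wild type and at 66.5 and 108 in treated Optn-/- livers. Treated wild type was the lowest group, and the Optn-/- livers reached from about the upper saline value to well above it. The log2 difference between treated Optn-/- and treated wild type was 1.26 ± 0.26, with a 95% interval of 0.62 to 1.90. It had the smallest unadjusted edgeR p of the 10 in that comparison (0.00298, edgeR adjusted p = 0.330). DESeq2 called it, at 1.27 and an adjusted p of 0.000733, the only 1 of the 16 alternatives that keep this entry to do so. Over these alternatives the estimate ran from 0.90 to 1.55. After acetaminophen in wild type the fitted value was -0.60 ± 0.26 (edgeR adjusted p = 0.173), and against saline the treated Optn-/- livers were at 0.66 ± 0.26 (0.126). Muc2 and the other intestinal traces differ between the same libraries, and intestinal epithelium is known to express UGT1 genes; their part in the Ugt1a9 values was not tested.

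Ugt1a6a and Ugt1a6b, near-identical phenol conjugating forms, did not keep an order. Ugt1a6a was at 11.2 and 59.4 FPKM after saline, at 26.3 and 47.7 in treated wild type and at 6.34 and 5.50 in treated Optn-/- livers. Ugt1a6b was at 16.6 and 47.6 FPKM after saline, at 73.1 and 32.7 in treated wild type and at 37.8 and 14.6 in treated Optn-/- livers. Both Optn-/- livers held the lowest Ugt1a6a values of the 6, while the Ugt1a6b values overlapped in every comparison. Ugt1a6a differed by -2.66 ± 0.75 in log2 between treated Optn-/- and treated wild type (edgeR adjusted p = 0.491) and by -2.38 ± 0.75 against saline (edgeR adjusted p = 0.0751). In wild type after acetaminophen it was at 0.28 ± 0.71 (edgeR adjusted p = 0.823), or -0.48 without saline replicate 3 and 1.88 without saline replicate 6. Without saline replicate 3 the difference of treated Optn-/- from saline livers was -3.14 with an edgeR adjusted p of 0.0170, without saline replicate 6 it was -0.78, and without filtering low genes -2.43 with 0.0271. The library set term gave 1.91, -5.04 and -3.13 for Ugt1a6a in the 3 comparisons (edgeR adjusted p = 0.0538, 0.107 and 0.0163). The Ugt1a6b differences were 0.95 ± 0.70, -1.04 ± 0.70 and -0.09 ± 0.69 in the 3 comparisons (edgeR adjusted p = 0.402, 0.721 and 0.939), and the last was 0.81 without saline replicate 6. FPKM of Ugt1a6a are computed over a long gene model (4312 exonic bases, against 2190 to 2382 for the other 3), so at equal counts it is given the lower FPKM.

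Of the 10 genes, 3 of the 4 Ugt1a entries had the largest spread between replicates. The pooled SD between replicates on the log2 CPM scale was 1.03 for Ugt1a6a, 0.98 for Ugt1a6b and 0.71 for Ugt1a1, larger than in 96.0%, 95.6% and 92.0% of the tested genes. Summed over all 9 Ugt1a entries, that SD was 0.14, larger than in 26.3% of genes, and the median over all tested genes was 0.21. Counts of the whole locus were 1087 and 971 CPM after saline, 620.1 and 770 in treated wild type and 627 and 708 in treated Optn-/- livers. The highest and lowest libraries differed 1.75-fold for the sum, against 10.8-fold for Ugt1a6a, 6.43-fold for Ugt1a1, 4.98-fold for Ugt1a6b and 3.50-fold for Ugt1a9. All 4 treated livers lay below both saline livers, and the treated genotypes overlapped. In FPKM, both treated wild-type livers lay below both saline livers for 45.1% of all tested genes, and both treated Optn-/- livers for 44.5%. The sum differed by -0.35 ± 0.15 in log2 after acetaminophen in wild type (edgeR adjusted p = 0.173). It differed by -0.09 ± 0.15 between the treated genotypes (0.900) and by -0.44 ± 0.15 between treated Optn-/- and saline livers (0.0937). For the last, DESeq2 gave an adjusted p of 0.0272, and edgeR with scaling by total counts alone -0.62 and 0.0375.

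The division of the locus among its entries differed between libraries, replicates included. Ugt1a1 took 73.7% of the Ugt1a counts in saline replicate 3 and 27.2% in saline replicate 6, 20.1% and 26.2% in treated wild type, and 50.4% and 50.0% in treated Optn-/- livers. Ugt1a6a took 4.86% and 28.8%, then 19.8% and 29.0%, then 4.75% and 3.64% of them in the same order. Saline replicate 3 and both Optn-/- livers thus had most counts on Ugt1a1 and few on Ugt1a6a, and the other 3 libraries a more even division. Ugt1a9 took 9.57% to 36.4% and was highest in both Optn-/- livers, and Ugt1a5, which is no member, took 3.84% to 24.2%. Because exons 2 to 5 are the same in all entries, these shares depend on how shared reads were assigned, and the part of that assignment in them was not tested.

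**Figure D2:**
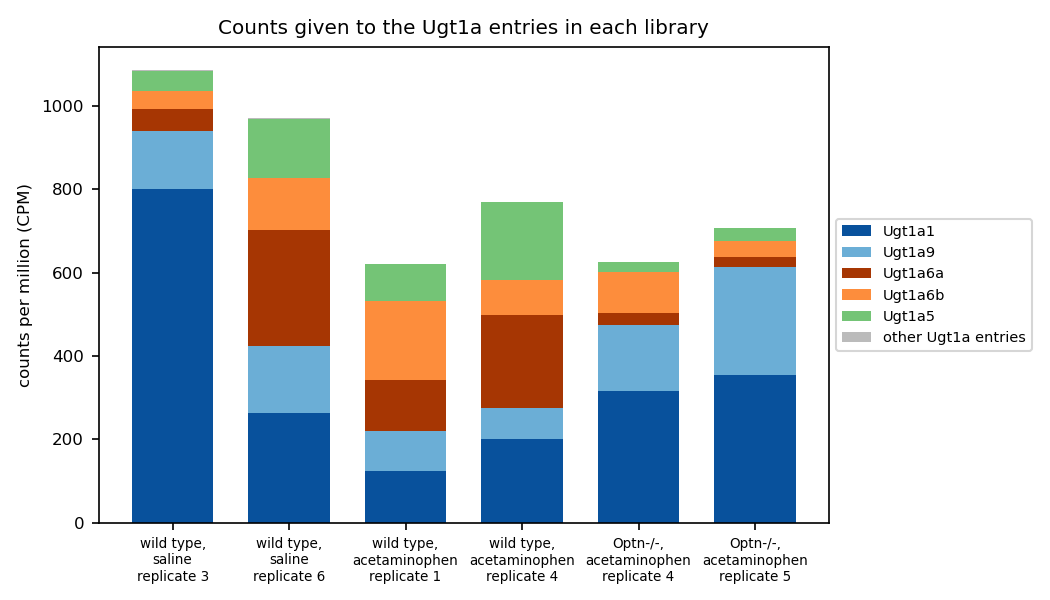
CPM (vertical axis) of the Ugt1a entries stacked for each of the 6 libraries, so that the bar height is the sum over the locus. Heights run from 620.1 to 1087 CPM, while the Ugt1a1 part runs from 20.1% to 73.7% of the bar and the 2 saline bars are divided differently.

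The Ugt2b genes gave the tightest values of the members that transfer glucuronic acid, and 0 of the 3 passed edgeR's test. Ugt2b5, an abundant hepatic form, was at 407 and 331 FPKM after saline, at 205 and 243 in treated wild type and at 249.6 and 270.1 in treated Optn-/- livers. Ugt2b36 was at 204 and 201 FPKM after saline, at 139.8 and 152 in treated wild type and at 119 and 158 in treated Optn-/- livers. Ugt2b1 was at 175 and 166 FPKM after saline, at 94.5 and 132 in treated wild type and at 101 and 121 in treated Optn-/- livers. For these 3 genes every treated library was below every saline library, as were both libraries of treated wild type for 45.1% and of treated Optn-/- for 44.5% of all tested genes. The fitted changes after acetaminophen in wild type were smaller than the FPKM ratios, since the fit rescales libraries: -0.51 ± 0.16 for Ugt2b5 (edgeR adjusted p = 0.0827), -0.39 ± 0.18 for Ugt2b1 (0.198) and -0.27 ± 0.15 for Ugt2b36 (0.286). Scaled by total counts alone, Ugt2b5 was at -0.73 with an edgeR adjusted p of 0.0310, and that scaling moved the median of all genes from 0.03 to -0.19. Against that median the Ugt2b5 value was lower by a like amount under both scalings.

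Between the treated genotypes the Ugt2b genes differed by 0.19 ± 0.16 (Ugt2b5), -0.06 ± 0.18 (Ugt2b1) and -0.10 ± 0.15 (Ugt2b36), with edgeR adjusted p of 0.779 to 0.946. The 95% intervals were -0.20 to 0.57, -0.50 to 0.38 and -0.48 to 0.27 in the same order. Over the alternatives the estimates ran from 0.099 to 0.51, -0.25 to 0.16 and -0.29 to 0.066. Treated Optn-/- livers against saline gave -0.33 ± 0.16, -0.45 ± 0.18 and -0.37 ± 0.15 for the same genes (edgeR adjusted p = 0.193, 0.133 and 0.143). Summing Ugt2b5 with Ugt2b36, Ugt2b37 and Ugt2b38 cancels reads given to the wrong one of these 4 genes. It does not correct for shared reads that were dropped or counted more than once, which the sources used here do not settle. That sum was 1349 and 1203 CPM after saline, 760.3 and 880.4 in treated wild type and 817 and 955 in treated Optn-/- livers. Its log2 change was -0.42 ± 0.14 after acetaminophen in wild type (edgeR adjusted p = 0.108) and 0.08 ± 0.14 between the treated genotypes (0.911). With the library set as a term these were -0.51 ± 0.19 (edgeR adjusted p = 0.174) and 0.27 ± 0.27. For the change after acetaminophen, DESeq2 gave -0.43 with an adjusted p of 0.0245, and edgeR with scaling by total counts alone -0.64 and 0.0366.

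Neither sulfation gene passed the test, and Sult1a1 stayed near its saline level in treated wild type. Sult1a1, a phenol sulfotransferase that acts on acetaminophen, was at 199 and 169 FPKM after saline, at 200.6 and 164 in treated wild type and at 108 and 167 in treated Optn-/- livers. Wild-type groups covered nearly the same range, and Optn-/- replicate 4 stood below the other 5 libraries. The log2 change after acetaminophen was 0.20 ± 0.24 with a 95% interval of -0.38 to 0.78 (edgeR adjusted p = 0.612), and its sign turned when libraries were scaled by total counts alone (-0.02). Its difference between treated genotypes was -0.44 ± 0.24 (edgeR adjusted p = 0.650), and that of treated Optn-/- from saline livers -0.25 ± 0.24 (0.504). Papss2 was at 30.9 and 25.7 FPKM after saline, at 22.2 and 25.4 in treated wild type and at 18.5 and 19.9 in treated Optn-/- livers. The 3 groups did not overlap, with the Optn-/- livers lowest, although the 25.7 and 25.4 FPKM of saline replicate 6 and treated replicate 4 were nearly equal. Taken 1 comparison at a time, such a lower position held for 45.1%, 15.9% and 44.5% of all tested genes. Fitted log2 changes of Papss2 were -0.04 ± 0.14 after acetaminophen in wild type, -0.34 ± 0.14 between the treated genotypes and -0.38 ± 0.14 between treated Optn-/- and saline livers (edgeR adjusted p = 0.869, 0.588 and 0.119). Scaled by total counts the last was -0.57 with an edgeR adjusted p of 0.0415. The Papss2 value between the treated genotypes ran from -0.40 to -0.044 over the 17 alternatives, and none of them called it.

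Ugdh, which supplies UDP-glucuronate, did not separate the groups. It was at 19.8 and 15.9 FPKM after saline, at 13.8 and 22.1 in treated wild type and at 13.0 and 18.7 in treated Optn-/- livers. All 3 groups overlapped. The fitted log2 changes were 0.21 ± 0.27, -0.21 ± 0.27 and 0.0023 ± 0.27 in the 3 comparisons, and the 95% interval of the first was -0.45 to 0.87.

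**Figure D3:**
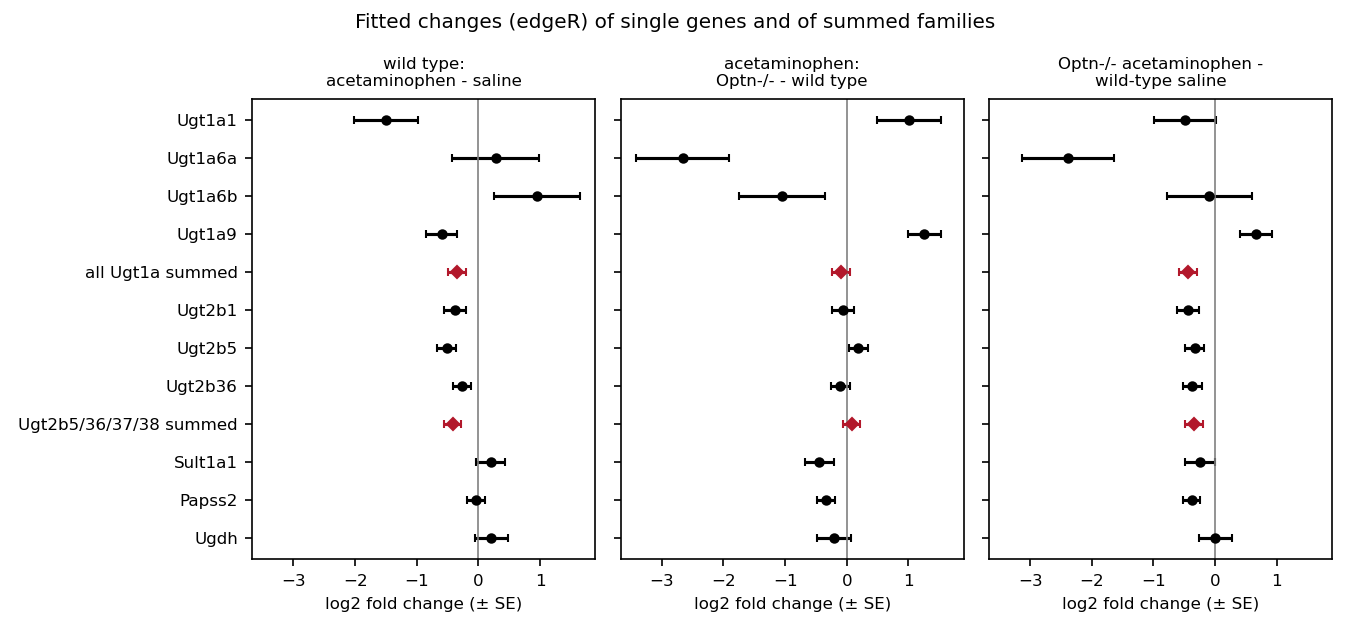
Fitted log2 fold changes (edgeR, horizontal axis, bars ± SE) of the 10 genes (black circles) and of the summed Ugt1a locus and the summed Ugt2b5, Ugt2b36, Ugt2b37 and Ugt2b38 (red diamonds) in the 3 comparisons. Single Ugt1a entries run from -2.66 to 1.26 between the treated genotypes while the locus sum is at -0.09.

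As a group, 6 of the 10 genes had all treated wild-type libraries below all saline libraries in FPKM and 0 had them above. Over all tested genes the same held for 45.1% below and 21.1% above. Treated Optn-/- livers against saline had 6 below, with 44.5% of all genes below, and 0 above, with 24.3% of all genes above. These were not the same 6: Ugt1a1 and Ugt1a9 were below in treated wild type only, and Ugt1a6a and Sult1a1 in treated Optn-/- only. The margin of Sult1a1 was narrow (167 against 169 FPKM). Between the treated genotypes, 3 were higher in Optn-/- (Ugt1a1, Ugt1a9 and Ugt2b5) and 2 lower (Ugt1a6a and Papss2), against 23.1% and 15.9% of all genes. The median fitted log2 change of the 10 was -0.15, -0.16 and -0.35 in the 3 comparisons, and that of all tested genes 0.03, -0.00059 and -0.0018.

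The other genes of the pathway were read from 7 lists of 68 genes with an entry, of which 47 were tested. Of all tested genes edgeR called 14.3% in wild type after acetaminophen and 0.103% between the treated genotypes. It called 20.3% for treated Optn-/- against saline livers. With DESeq2 these shares were 26.6%, 2.42% and 31.0%. In lists this short, counts of 1 or 2 genes are near the shares against saline, so they are not read as a response of a list. In wild type after acetaminophen, 1 of 8 other UGT genes fell and 0 rose: Ugt2b34, another UGT2B transferase, at 91.6 and 81.5 FPKM after saline, 36.7 and 42.9 in treated wild type and 35.9 and 43.7 in treated Optn-/- livers. Its log2 change was -0.91 ± 0.15 (edgeR adjusted p = 0.0167), and the call was lost without saline replicate 3 or treated replicate 1 (0.0783 and 0.0859). Ugt2b35, Ugt2b38 and Ugt2a3 were at -0.62, -0.48 and -0.39 without passing. The median of the 8 was -0.45. With total counts 3 of the 8 fell, where 1470 of all 11677 tested genes did, and with DESeq2 1 fell. Treated Optn-/- against saline livers showed the fall of Ugt2b34 again (-0.94 ± 0.15, edgeR adjusted p = 0.0114) and a fall of Ugt2b35 (-0.89 ± 0.23, 0.0437). Without saline replicate 3 the former was lost (edgeR adjusted p = 0.0639), and the latter in 5 of the 6 fits that leave out a library, treated wild-type replicate 4 being the exception (0.0516 to 0.153). The library set term ended both calls too (0.0638 and 0.153). For treated Optn-/- against saline livers, 4 of the 8 fell with total counts and 4 with DESeq2. Of all 11677 tested genes, 1756 and 1633 fell in these fits. With edgeR 0 of the 8 passed between the treated genotypes, and with DESeq2 1. Ugt1a5, another entry of the UGT1 locus, was the 1 gene with an unadjusted edgeR p under 0.05 (-2.34 ± 0.57, adjusted p = 0.444).

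Among 8 other tested sulfotransferases, 0 rose or fell after acetaminophen in wild type and 0 between the treated genotypes. At an unadjusted edgeR p under 0.05 there were 2 and 3, and DESeq2 called 1 in each. Sult2a8, the most abundant of them and named here after its values were seen, was at 108 and 95.3 FPKM after saline, 86.5 and 83.6 in treated wild type and 74.5 and 69.8 in treated Optn-/- livers. Sult4a1, a brain form, had 803 counts in treated wild-type replicate 4, which carries the neuronal marker trace, and at most 32 elsewhere. Sult1e1, the estrogen sulfotransferase, had 0 and 6 counts after saline and 13 to 260 in the treated livers. Sult1b1 had the smallest p between the treated genotypes, at -0.84 ± 0.16 (edgeR adjusted p = 0.294). Sult5a1 rose in treated Optn-/- against saline livers by 0.93 ± 0.22 (edgeR adjusted p = 0.0340), a call lost without either saline or either Optn-/- library (0.0939 to 0.145), with total counts (0.0688) or with the library set term. In that comparison 1 of the 8 rose and 0 fell, against 0 and 2 with total counts or with limma and 2 and 1 with DESeq2. Of all 11677 tested genes, edgeR called 20.3% there, limma 25.6% and DESeq2 31.0%, and with total counts 1134 rose and 1756 fell.

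Sulfate for PAPS comes partly from cysteine oxidation and partly from uptake. In wild type after acetaminophen, 2 of 10 tested genes of sulfate and PAPS supply rose and 0 fell, where 14.3% of all tested genes were called. The balance depended on the scaling: 1 rose and 3 fell with total counts, 1 and 4 with limma, 2 and 2 with DESeq2, and 0 and 0 with the library set term. Cdo1, the cysteine dioxygenase, was at 356 and 374 FPKM after saline, 506 and 488 in treated wild type and 362 and 469 in treated Optn-/- livers. Its log2 change in wild type was 0.66 ± 0.15 (edgeR adjusted p = 0.0405), while the treated Optn-/- values overlapped those after saline. Ethe1, a mitochondrial persulfide dioxygenase, was at 19.8 and 18.5, then 33.2 and 26.3, then 22.9 and 25.0 FPKM in the same order. Its log2 change in wild type was 0.85 ± 0.17 (edgeR adjusted p = 0.0265). Cdo1 lost its call without any 1 of the 4 wild-type libraries (edgeR adjusted p = 0.0944 to 0.174), and Ethe1 without any 1 library but treated wild-type replicate 4 (0.0547 to 0.123). The library set term ended both (edgeR adjusted p = 0.137 and 0.114), and total counts that of Cdo1 (0.0997). Limma and the fit without filtering low genes also ended that of Cdo1, and fitting only the 2 groups compared that of Ethe1. Slc26a1, the sulfate anion transporter of the hepatocyte, was at 42.2 and 50.2 FPKM after saline, 13.2 and 21.5 in treated wild type and 17.3 and 8.85 in treated Optn-/- livers. Its log2 change was -1.21 ± 0.37 in wild type (edgeR adjusted p = 0.0843) and -1.63 ± 0.38 in treated Optn-/- against saline livers (0.0324). Suox, the sulfite oxidase, and Tst, a thiosulfate sulfurtransferase, fell in the latter comparison, with log2 changes of -0.50 ± 0.13 and -0.76 ± 0.20 (edgeR adjusted p = 0.0462 and 0.0474). With Slc26a1, 3 of the 10 fell there and 0 rose, where edgeR called 20.3% of all tested genes. Leaving out saline replicate 3, saline replicate 6 or Optn-/- replicate 5 ended all 3 of these calls. The library set term did too (edgeR adjusted p = 0.0881 for Slc26a1, 0.201 for Suox and 0.188 for Tst). Of the 6 fits that leave out a library, Suox lost its call in 6, Tst in 5 and Slc26a1 in 3. Suox and Tst also lost theirs when only the 2 groups compared were fitted. Neither edgeR nor DESeq2 called any of the 10 between the treated genotypes (0 of 10), and 0 had an unadjusted edgeR p under 0.05.

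Of 6 genes that supply or move UDP-glucuronate, 1 rose after acetaminophen in wild type, where 14.3% of all tested genes were called. Pgm2, a phosphopentomutase with phosphoglucomutase activity, was at 0.495 and 1.11 FPKM after saline, 2.56 and 2.49 in treated wild type and 3.56 and 4.63 in treated Optn-/- livers. It rose by 1.86 ± 0.39 in wild type and by 2.52 ± 0.39 in treated Optn-/- against saline livers (edgeR adjusted p = 0.0306 and 0.0107). The former call was lost without any 1 library but saline replicate 6 (0.0667 to 0.0968), and the latter without Optn-/- replicate 5 (0.0689). The more abundant Pgm1 and Ugp2, which make glucose 1-phosphate and UDP-glucose, did not pass (-0.24 ± 0.14 and 0.15 ± 0.34 in wild type). Tested genes that remove conjugates were 3 (Gusb, Abhd10 and Arsa), and those that export them 3 (Abcc2, Abcc3 and Abcg2). Of these, 0 passed with edgeR's main fit or with DESeq2 in any of the 3 comparisons. With total counts, edgeR called 1 of the 3 exporters lower in wild type after acetaminophen. Abcg2 alone had an unadjusted edgeR p under 0.05, after acetaminophen in wild type (-0.41 ± 0.14, adjusted p = 0.110). Abcc3, the basolateral exporter of acetaminophen glucuronide, was at 26.0 and 29.2 FPKM after saline, 24.2 and 24.4 in treated wild type and 26.1 and 27.1 in treated Optn-/- livers.

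The 9 regulators of conjugation genes are transcription factors and Keap1, the repressor of NRF2. Of these, 1 fell and 2 rose in wild type after acetaminophen, where 14.3% of all tested genes were called. With total counts or limma 2 fell and 1 rose, and with DESeq2 2 fell and 2 rose. Nr1i3, the constitutive androstane receptor, was at 57.0 and 54.4 FPKM after saline, 10.1 and 9.22 in treated wild type and 13.2 and 13.8 in treated Optn-/- livers. It fell by 2.31 ± 0.13 on the log2 scale in wild type and by 1.86 ± 0.13 in treated Optn-/- against saline livers (edgeR adjusted p = 0.0014 in both), and passed under all 17 alternatives in both.

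Ahr, the aryl hydrocarbon receptor, was at 3.04 and 3.37 FPKM after saline, 5.10 and 6.59 in treated wild type and 3.47 and 3.19 in treated Optn-/- livers. It rose by 1.07 ± 0.16 in wild type (edgeR adjusted p = 0.0129), and the call was lost without either saline library (0.0552 and 0.0737) or when the library set was a term (0.0501). In treated Optn-/- against treated wild-type livers Ahr was at -0.83 ± 0.16 (edgeR adjusted p = 0.294). Both Optn-/- livers were below both treated wild-type livers, as for 15.9% of all tested genes. Hnf4a, a nuclear receptor of hepatocytes, rose by 0.75 ± 0.17 in wild type and 0.67 ± 0.17 in treated Optn-/- against saline livers (edgeR adjusted p = 0.0370 and 0.0390), but leaving out any 1 of the 6 libraries ended both calls (0.0547 to 0.189), as did total counts (0.0920 and 0.0972) and the library set term (0.0670 and 0.182). Rxra, the partner of Nr1i3 and Nr1i2, was at 67.5 and 73.5 FPKM after saline, 42.2 and 49.1 in treated wild type and 40.9 and 40.8 in treated Optn-/- livers. It fell by 0.61 ± 0.12 in treated Optn-/- against saline livers (edgeR adjusted p = 0.0225, 0.0644 to 0.0931 without a library of either group and 0.0867 with the library set term). Nr1i2 and Nfe2l2, the pregnane X receptor and the oxidant responsive factor NRF2, did not pass in any comparison. Of the 9 regulators, 0 passed between the treated genotypes with edgeR, 3 of them had an unadjusted p under 0.05, and DESeq2 called Nr1i3 (higher in Optn-/-) and Ahr (lower).

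**Figure D4:**
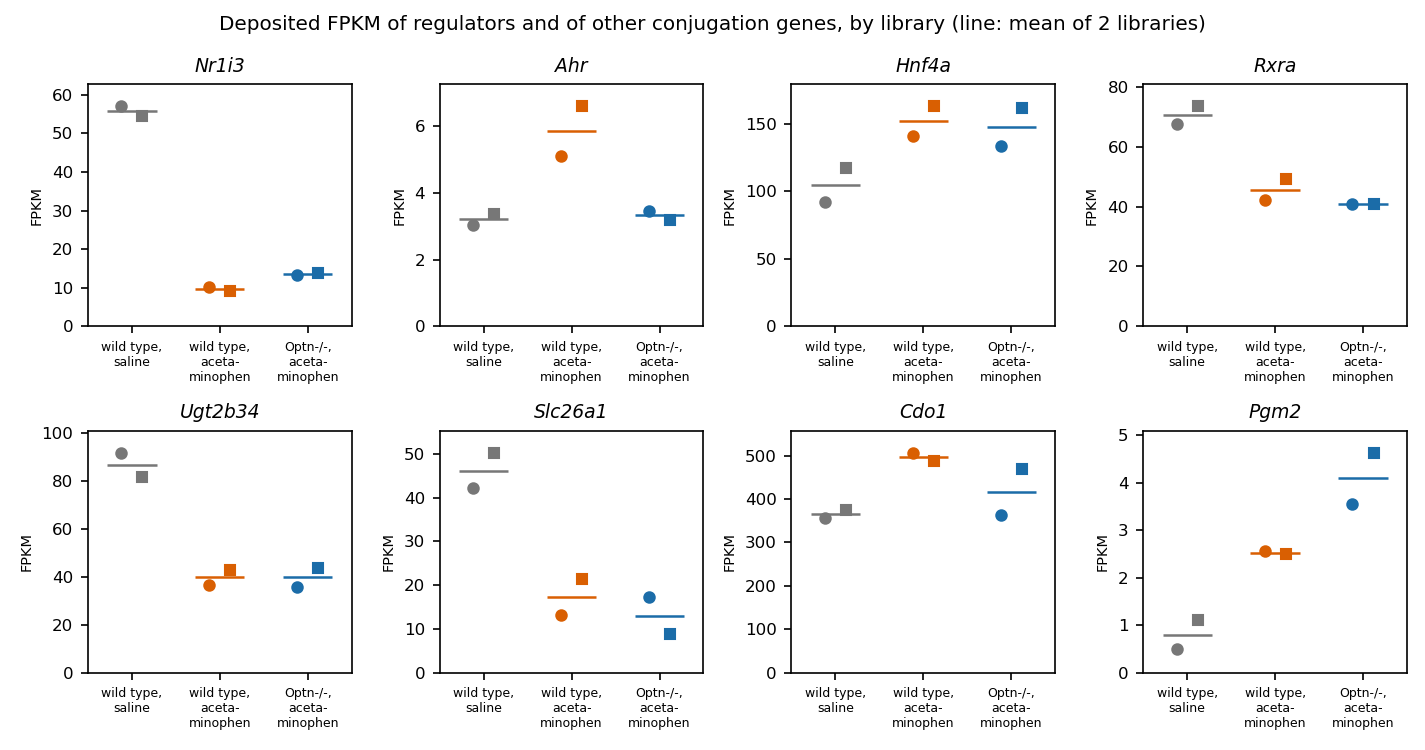
Deposited FPKM (vertical axes, from 0) of 4 regulators (Nr1i3, Ahr, Hnf4a, Rxra) and 4 other pathway genes (Ugt2b34, Slc26a1, Cdo1, Pgm2) in the 6 libraries by group; points are single libraries and lines the mean of 2. Nr1i3 is at 54.4 and 57.0 after saline and at 9.22 to 13.8 in the 4 treated livers, while Ahr is at 5.10 and 6.59 in treated wild type and at 3.04 to 3.47 in the other 4 livers.

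Start-site sequences from RefSeq (GRCm38.p6, 250 bases before to 50 after each start) matched 9 of the 10 genes by symbol, with a pair of starts for Papss2; Ugt1a6b was not matched. Each was searched on both strands for GCGTG, the core of the aryl hydrocarbon receptor element, and for TGACNNNGC, the core of the antioxidant response element. GCGTG occurred in Ugdh alone, at 3 places (32.4% of all 32851 windows of that length hold it), and TGACNNNGC in Ugdh alone, at 2 places (12.4% of all windows). The Ugt1a6a window (88134559 to 88134858) lies upstream of the Ugt1a6a first exon shown above, which starts at 88138378. The bases just before that exon were therefore not searched. A stretch of the Ugdh window is shown because it alone among the matched members held these letters, with the matches of either motif on either strand in capitals. A match is a run of letters and not a measured site.
Ugdh: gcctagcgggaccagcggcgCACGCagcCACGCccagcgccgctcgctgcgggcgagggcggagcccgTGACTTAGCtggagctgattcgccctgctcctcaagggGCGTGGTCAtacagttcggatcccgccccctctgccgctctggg
The stretch runs from -200 to -51 relative to the start, on the minus strand at chr5:65435893-65436042. The last match of each motif overlaps the other.

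Genes outside the pathway with the most similar profile were found from the root-mean-square difference of log2 CPM, centred on each gene's mean, over the 6 libraries and 9830 protein-coding genes. The steadier members had close neighbours: Rala for Ugt2b36 (0.02), Fdx1 for Papss2 (0.03), Antxr2 for Ugt2b5 (0.05), Pacs2 for Ugt2b1 (0.05), Rps25 for Sult1a1 (0.05) and Kansl1 for Ugdh (0.08). Ugt1a9 was nearest to Ap5s1 (0.12). Differences were larger for Ugt1a1 with Mup1 (0.32), Ugt1a6a with Repin1 (0.34) and Ugt1a6b with Gja4 (0.38), so no gene compared followed these 3 entries closely. Mup1, a major urinary protein gene, was at 185 and 89.0 FPKM after saline, 37.6 and 53.8 in treated wild type and 112 and 65.9 in treated Optn-/- livers, and also differed widely between the saline replicates. These likenesses rest on 6 libraries and are descriptions only.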

How the data were processed

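Total RNA from 6 livers was poly(A) selected and sequenced in pairs on an Illumina NovaSeq, per the labels' protocols, which describe an adipose input although the tissue label is liver. The deposited table gives a whole-number count and an FPKM for each gene and library, per the file headers; a count of 0 is listed at an FPKM of 0.0001. Bowtie 0.12.2 and the mm8 build are named in the submitters' processing notes. The coordinates equal GENCODE M21 (GRCm38) for 94.3% of 55144 genes. No source used here gives the counter, its annotation or its use of strand. Of the deposited counts from 1 to 12, 49.1% to 50.8% per library were multiples of 4, so a count need not be 1 fragment; p-values assume the spread between the 2 libraries of a group covers this.

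Counts were tested with edgeR 4.0.16 (R 4.3.3; quasi-likelihood, TMM factors, 3 group means over all 6 libraries, genes averaging 0.5 FPKM or more, Benjamini-Hochberg over 11677 genes, threshold 0.05). The fit had 3 residual degrees of freedom. DESeq2 1.42.0 and limma 3.58.1 on log2(FPKM + 0.5) were alternatives, and 17 alternatives were run, each library left out in turn among them. Groups came from the sample titles. All 10 members are named in each comparison, and of each other list up to 4 genes with the smallest unadjusted p and those that passed. 1 further regulator, outside the 9 listed, is not reported here. The members and lists were chosen with earlier results of these data known. Sequence identities and shared windows were computed with Biopython 1.88 from GENCODE M21 transcripts; intervals of a log2 change are 95% intervals from its SE.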

Additional observations from a re-analysis of the deposited data

How the results depend on the processing

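With edgeR, TMM factors and the low-value filter, 0 of the 10 genes passed in each comparison. In wild type after acetaminophen the count was 1 with total counts alone, 2 with DESeq2, 1 with limma at either pseudocount (0.5 or 0.1) and 1 with a term for the library set, and it ranged from 0 to 1 when 1 library was left out. Between the treated genotypes it was 1 with DESeq2 and 0 to 0 with a library left out. Treated Optn-/- against saline livers gave 1 with total counts, 1 with DESeq2, 1 with limma at either pseudocount, 1 without a filter and 1 with the library set term, and 0 to 1 with a library left out. The remaining alternatives gave 0. Over all genes, DESeq2 called 163 higher and 120 lower between the treated genotypes where edgeR called 6 and 6, and total-count scaling turned 976 higher and 691 lower into 721 and 1470 in wild type.

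Some signs turned, for reasons that were not tested. In wild type after acetaminophen, total counts and limma (0.5, 0.1) gave -0.023, -0.0155 and -0.0156 for Sult1a1 and -0.00068, -0.022 and -0.023 for Ugdh. Between the treated genotypes the library set term gave 0.046 for Ugt2b1, 0.14 for Ugdh and 0.10 for the Ugt1a sum, which limma put at 0.11 and 0.11. In treated Optn-/- against saline livers that term gave 0.54 for Ugt1a1, and Ugdh was at -0.0045 with DESeq2 size factors or DESeq2, -0.18 with total counts, -0.18 and -0.19 with limma and -0.057 without a filter.
Leaving out 1 library at a time, the log2 change ranged in wild type after acetaminophen from -0.48 to 1.88 for Ugt1a6a, -0.21 to 0.10 for Papss2, -0.13 to 0.49 for Ugdh; between the treated genotypes from -0.25 to 0.16 for Ugt2b1, -0.29 to 0.066 for Ugt2b36, -0.48 to 0.13 for Ugdh, -0.21 to 0.038 for Ugt1a summed, -0.011 to 0.17 for Ugt2b copies summed; in treated Optn-/- against saline livers from -1.11 to 0.53 for Ugt1a1, -0.97 to 0.81 for Ugt1a6b, -0.57 to 0.019 for Sult1a1, -0.27 to 0.23 for Ugdh. No paired analysis was possible because the groups share at most 1 replicate number (4, in both treated groups). With 2 livers a group, a lone remaining library was assumed to vary like the other groups.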
